A study of Mus musculus with 8 samples.

Results

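The genes that move salt and water across the lung epithelium and its vessels were examined as a group of 9 named genes, out of 20839 named genes on the array. They were taken by the gene symbol of the platform annotation and are the sodium channel subunits Scnn1a, Scnn1b and Scnn1g, the sodium pump subunit Atp1b1, the chloride channel Cftr, the chloride cotransporter Slc12a2 and the aquaporins Aqp1, Aqp3 and Aqp4. They had 10 array features in all, 2 for Aqp4 and 1 for each other gene, and the feature with the highest mean over all arrays stood for Aqp4. The lungs came from newborn mouse pups of the C57Bl/6J background, 4 labelled Fgf10 +/- (heterozygous for the growth factor gene Fgf10) and 4 labelled wild-type, 1 Agilent array each. The sample titles mark the Fgf10 +/- group as TG, which the labels do not explain. All 8 pups breathed 85% oxygen between postnatal days 0 and 3. No room-air arrays were used here, so every comparison is one of genotypes within oxygen-exposed lungs. Whole lung was used, in which fewer cells of a type and less RNA per cell cannot be told apart. The labels do not say whether the pups of a group came from separate litters, and p-values measure only the spread between these samples.

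The air spaces of the fetal lung are filled with fluid that the epithelium secretes, driven by chloride that enters the cell through the cotransporter encoded by Slc12a2 and leaves through channels such as CFTR. Around birth the epithelium turns to absorption. Sodium enters through the epithelial sodium channel, built from the products of Scnn1a, Scnn1b and Scnn1g, is pumped out by the sodium pump, and water follows, partly through aquaporins.

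Facts of the whole array set bear on every value below. The lung markers Sftpc and Ager were bright in both groups, Ager at a mean log2 intensity of 12.18 in Fgf10+/- lungs and 12.32 in wild-type lungs. Sftpc averaged 15.99 in each group, the highest value of the table, where a difference could not have been seen. Fgf10 itself had a log2 intensity of 8.04 ± 0.20 in Fgf10+/- lungs and 7.81 ± 0.28 in wild-type lungs (SD over 4 arrays per group). That is a difference of 0.23 with a two-sided exact permutation p = 0.2, so Fgf10 was not lower in the group labelled heterozygous. These values are from its brightest feature, and all 10 features of Fgf10 had a higher mean in Fgf10+/- arrays, by 0.06 to 0.44. The labels do not describe the Fgf10 allele, so its RNA level is no check on the genotypes, and all directions rest on the labels. Across 17234 tested genes, limma called 137 at an adjusted p below 0.05, which is 0.795% of them. Of these 39 were higher (0.226%) and 98 lower (0.569%) in Fgf10+/- arrays. Cell type marker lists moved as well. Of 12 alveolar type 2 markers 5 were called higher (Abca3, Lamp3, Slc34a2, Lpcat1 and Etv5), and of 6 measured markers of cycling cells 4 were called lower (Mki67, Top2a, Ccnb2 and Birc5). No marker was called among 12 of alveolar type 1 cells, 11 of blood endothelium, 7 of club and secretory airway cells, 9 of ciliated cells or 6 of erythroid cells. The same held for 10 macrophage, 6 smooth muscle, 6 fibroblast, 7 basal and squamous, 6 thymus and T cell and 10 immediate early genes. Among these, macrophage markers had a median difference of -0.56, with 8 of 10 negative, and immediate early genes one of 0.34, with 9 of 10 positive. Of 6 cardiac muscle genes Myh7 was called higher.

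The promoters of 4 of the genes are shown because they differ in the direction of their values below, with Cftr and Aqp3 higher and Aqp1 and Scnn1b lower on average in Fgf10+/- arrays. Each is the RefSeq window of build GRCm38.p6 from 250 bases before to 50 bases after the annotated start, written 5′ to 3′. Both strands were searched. Capitals mark the TATA box letters TATAAA, the letters CCAAT of another common promoter element and the GC box letters GGGCGG, and overlapping matches run together.
Cftr, chr6:18170437-18170736, plus strand: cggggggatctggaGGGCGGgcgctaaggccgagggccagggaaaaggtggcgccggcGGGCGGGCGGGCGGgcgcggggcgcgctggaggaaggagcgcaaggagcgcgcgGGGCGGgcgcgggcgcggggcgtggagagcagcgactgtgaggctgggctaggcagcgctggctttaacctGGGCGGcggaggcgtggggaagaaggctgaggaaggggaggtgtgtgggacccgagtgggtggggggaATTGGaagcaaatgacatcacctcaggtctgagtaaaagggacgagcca
Aqp3, chr4:41098134-41098433, minus strand: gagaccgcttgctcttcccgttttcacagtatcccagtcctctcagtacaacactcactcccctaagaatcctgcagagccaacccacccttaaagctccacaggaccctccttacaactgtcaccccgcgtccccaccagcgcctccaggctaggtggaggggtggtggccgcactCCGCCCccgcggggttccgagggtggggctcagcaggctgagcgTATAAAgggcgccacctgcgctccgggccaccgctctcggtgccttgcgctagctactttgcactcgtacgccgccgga
Aqp1, chr6:55336049-55336348, plus strand: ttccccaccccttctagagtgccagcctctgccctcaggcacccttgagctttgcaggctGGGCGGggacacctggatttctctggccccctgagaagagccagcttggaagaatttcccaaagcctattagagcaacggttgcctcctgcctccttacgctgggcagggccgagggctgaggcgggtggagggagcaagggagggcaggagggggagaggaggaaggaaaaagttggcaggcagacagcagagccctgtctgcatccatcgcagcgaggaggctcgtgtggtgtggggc
Scnn1b, chr7:121864788-121865087, plus strand: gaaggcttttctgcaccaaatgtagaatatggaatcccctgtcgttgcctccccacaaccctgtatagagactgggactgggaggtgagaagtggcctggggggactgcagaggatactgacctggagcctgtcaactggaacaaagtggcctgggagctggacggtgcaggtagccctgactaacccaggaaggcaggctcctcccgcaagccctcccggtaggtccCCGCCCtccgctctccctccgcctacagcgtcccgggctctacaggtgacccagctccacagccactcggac
The letters GGGCGG stood in all 6 member windows used here, those of Scnn1b, Scnn1g, Atp1b1, Cftr, Aqp1 and Aqp3, and in 35.7% of all 32851 windows. The window of Cftr held 6 such matches, 3 of them overlapping, at a base composition of 71.3% G and C. TATAAA was found in that of Aqp3 alone, 29 bases before the start, and in 13.6% of all windows. CCAAT was found in those of Cftr and Atp1b1, and in 37.4% of all windows. AGAACA, part of the glucocorticoid receptor's binding site, was in none of the 6 and in 19% of all windows. These matches describe the sequence only, and GGGCGG, found in all 6 windows, could not have separated these genes by direction. Member windows on a single chromosome were left out, while the shares of all 32851 windows include that chromosome. The promoter set held no window for Scnn1a. In all, no window was counted for Scnn1a, Slc12a2 or Aqp4. The counts do not cover these genes, of which Slc12a2 and Aqp4 are the members whose groups did not overlap.

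No member reached the threshold in either direction. Among the 8 members bright enough to be tested, limma called 0, at adjusted p between 0.181 and 0.817, beside 0.795% of all genes called in either direction, 0.226% higher and 0.569% lower. By unadjusted p, 4 members lay below 0.05, beside 11.2% of all genes. The arrays of the groups did not overlap in 2 of the 9 members, Slc12a2 and Aqp4, beside 6.64% of all genes. Both were higher in Fgf10+/- arrays, beside 3.13% of all genes apart in that direction and 3.51% apart in the other. The mean was higher in Fgf10+/- arrays for 6 members and lower for 3, with a median log2 difference of 0.07 over all 9, beside 0.007 over all tested genes. The chloride transport genes and the aquaporins Aqp3 and Aqp4 had positive differences of 0.30 to 0.67. The sodium channel subunits Scnn1a and Scnn1b and the vascular water channel Aqp1 had negative ones of -0.21 to -0.16, with 95% intervals that included 0. The remaining members Atp1b1 and Scnn1g had differences of 0.07 and 0.02.

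**Figure D1:**
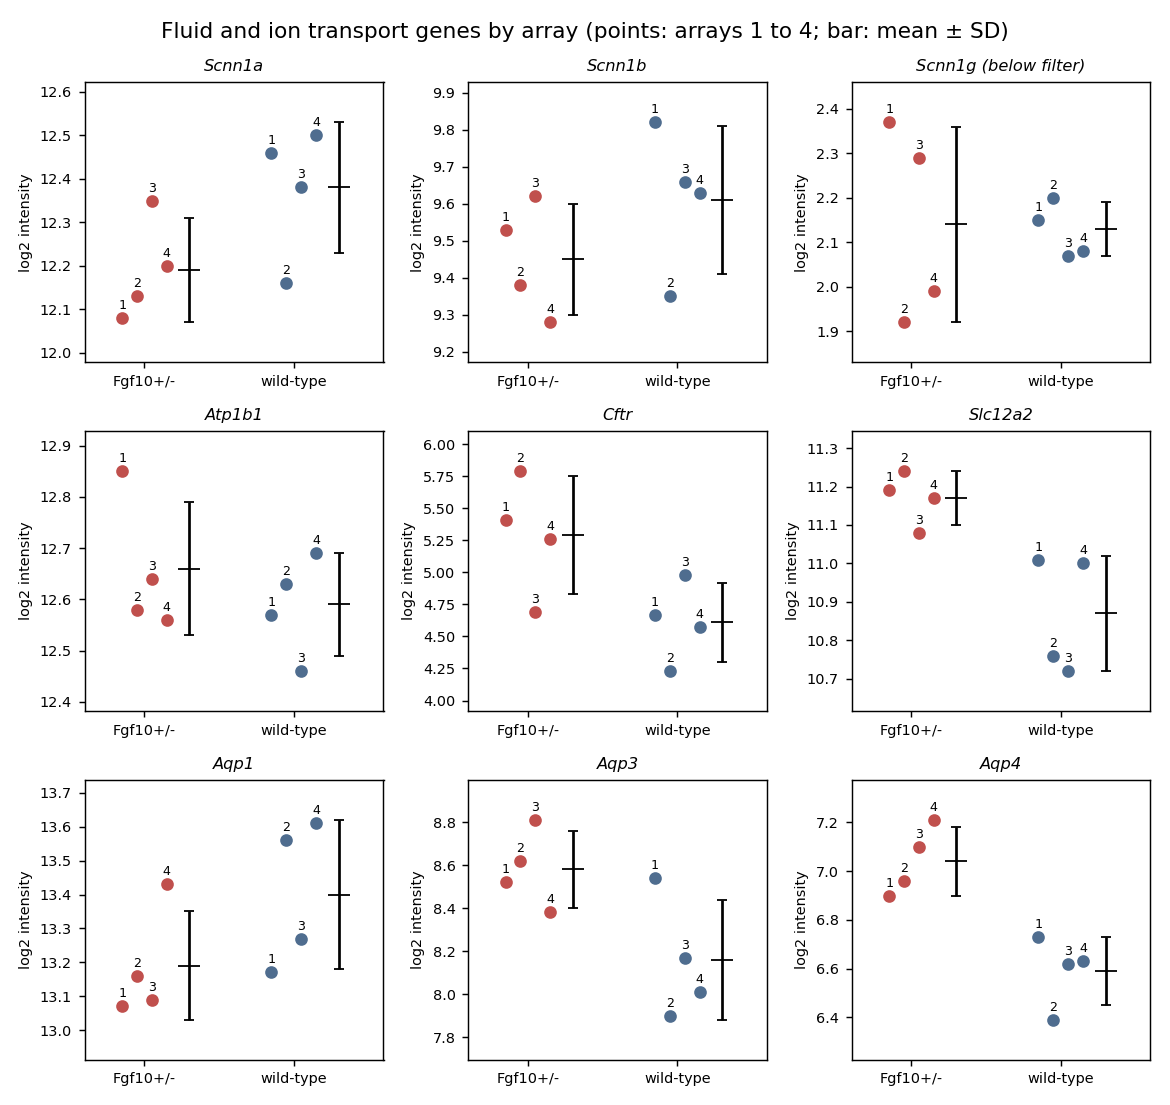
Log2 intensity (vertical axes, each panel on its own scale) of the 9 genes in each array, Fgf10+/- arrays left and wild-type arrays right. Points are arrays numbered 1 to 4 and bars are mean ± SD. The groups are apart in Slc12a2 and Aqp4 and overlap in the other 7 panels, of which Scnn1g lies below the filter level.

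The sodium channel was examined first. Scnn1a encodes the alpha subunit, without which the channel does not form and newborn mice fail to clear lung liquid. It read 12.08, 12.13, 12.35 and 12.20 in Fgf10+/- arrays and 12.46, 12.16, 12.38 and 12.50 in wild-type arrays (log2 intensity, arrays 1 to 4). In all, 3 of the wild-type arrays lay above every Fgf10+/- array and wild-type array 2 lay among them, so the groups overlapped. The difference was -0.18 (95% CI -0.38 to 0.01, limma adjusted p = 0.471), a level 1.14-fold lower in Fgf10+/- arrays. Left out in turn, single arrays moved it between -0.26, without wild-type array 2, and -0.14, without wild-type array 4.

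Scnn1b encodes the beta subunit, whose overexpression in airways dehydrates the airway surface in mice. It read 9.53, 9.38, 9.62 and 9.28 in Fgf10+/- arrays and 9.82, 9.35, 9.66 and 9.63 in wild-type arrays. The groups overlapped because wild-type array 2 was again the lowest of its group. The difference was -0.16 (95% CI -0.42 to 0.09, limma adjusted p = 0.668), and it was -0.25 without wild-type array 2 and -0.09 without wild-type array 1.

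Scnn1g, the gamma subunit, is the member for which the array gave almost no signal. It read 2.37, 1.92, 2.29 and 1.99 in Fgf10+/- arrays and 2.15, 2.20, 2.07 and 2.08 in wild-type arrays. All 8 values lay below the filter level of 2.76 and near the lowest value of the table, 1.65. The table holds no detection call, so whether Scnn1g lay above background is unknown. With the filter removed its difference was 0.02 (95% CI -0.49 to 0.53, limma adjusted p = 0.988), and nothing about the gamma subunit can be read from it.

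Atp1b1 encodes the beta-1 subunit of the sodium pump, which helps bring the pump to the basolateral membrane. It read 12.85, 12.58, 12.64 and 12.56 in Fgf10+/- arrays and 12.57, 12.63, 12.46 and 12.69 in wild-type arrays. Fgf10+/- array 1 was the highest of all 8 and the remaining arrays were interleaved. The difference of 0.07 had an interval of -0.11 to 0.25 (limma adjusted p = 0.817), so a change beyond 1.19-fold higher lay outside it. Without Fgf10+/- array 1 the difference was 0.01.

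Cftr, which had the largest difference of the 9 genes, encodes the apical chloride channel that is mutated in cystic fibrosis. It read 5.41, 5.79, 4.69 and 5.26 in Fgf10+/- arrays and 4.67, 4.23, 4.98 and 4.57 in wild-type arrays. Of the Fgf10+/- arrays, 3 lay above all wild-type arrays, while Fgf10+/- array 3 lay among them. The difference was 0.67 (95% CI 0.04 to 1.31, SE 0.30), a level 1.6-fold higher in Fgf10+/- arrays, with an unadjusted p = 0.0399 and a limma adjusted p = 0.411. It was 0.51 without Fgf10+/- array 2 and 0.87 without Fgf10+/- array 3. Cftr also spread most within a group among the 9 genes, over 1.10 in Fgf10+/- arrays and 0.75 in wild-type arrays.

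Slc12a2 encodes NKCC1, the basolateral cotransporter of sodium, potassium and chloride that loads the cell with chloride for secretion. It read 11.19, 11.24, 11.08 and 11.17 in Fgf10+/- arrays and 11.01, 10.76, 10.72 and 11.00 in wild-type arrays. Every Fgf10+/- array lay above every wild-type array, the closest pair being Fgf10+/- array 3 and wild-type array 1. The difference was 0.30 (95% CI 0.10 to 0.49, SE 0.09), a level 1.23-fold higher in Fgf10+/- arrays, with an unadjusted p = 0.00521. This was the smallest adjusted p of the members, 0.181 by limma, and it did not pass. With single arrays left out the difference stayed between 0.25 and 0.34 and the adjusted p between 0.114 and 0.401.

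Among the aquaporins, Aqp4 and Aqp3 are epithelial and Aqp1 is mainly vascular in the lung. Aqp4 forms a water channel of the basolateral membrane. Its brighter feature read 6.90, 6.96, 7.10 and 7.21 in Fgf10+/- arrays and 6.73, 6.39, 6.62 and 6.63 in wild-type arrays. The groups did not overlap. The difference was 0.45 (95% CI 0.09 to 0.81, SE 0.17), a level 1.36-fold higher, with an unadjusted p = 0.0187 and a limma adjusted p = 0.314. Its other feature averaged 6.91 ± 0.34 in Fgf10+/- lungs and 6.57 ± 0.34 in wild-type lungs (SD, 4 lungs a group). That feature had the same sign, at 0.35, but its groups overlapped.

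Aqp3 encodes an aquaglyceroporin, a channel for water and glycerol, found in airway basal cells. It read 8.52, 8.62, 8.81 and 8.38 in Fgf10+/- arrays and 8.54, 7.90, 8.17 and 8.01 in wild-type arrays. Wild-type array 1 lay among the Fgf10+/- arrays and the other 3 wild-type arrays lay below all of them. The difference was 0.42 (95% CI 0.09 to 0.76, SE 0.15), a level 1.34-fold higher, with an unadjusted p = 0.0161 and a limma adjusted p = 0.297. It was 0.55 without wild-type array 1, the lowest adjusted p of the runs with 1 array left out being 0.098. Of 7 measured markers of basal and squamous epithelium none was called, their median difference was -0.17, and their scores ranged from -0.18 to -0.03 in Fgf10+/- arrays and from -0.34 to 0.52 in wild-type arrays. A score is computed for 1 array by centring every listed gene on its 8-array mean and then averaging the centred log2 values. The part of basal cells in the Aqp3 values was not tested.

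Aqp1 encodes the water channel of capillary endothelium and of red blood cells. It read 13.07, 13.16, 13.09 and 13.43 in Fgf10+/- arrays and 13.17, 13.56, 13.27 and 13.61 in wild-type arrays. The groups overlapped, with array 4 the highest of each. The difference was -0.21 (95% CI -0.45 to 0.02, limma adjusted p = 0.501), a level 1.16-fold lower in Fgf10+/- arrays. Erythroid marker scores were 0.17, -0.27, 0.06 and 0.31 in Fgf10+/- arrays and -0.42, 0.20, -0.58 and 0.53 in wild-type arrays, so array 4 had the highest erythroid score of each group as well. Blood endothelium scores ranged from -0.12 to 0.05 in Fgf10+/- arrays and from -0.11 to 0.15 in wild-type arrays. The part of red cells or endothelium in the Aqp1 values was not tested.

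**Figure D2:**
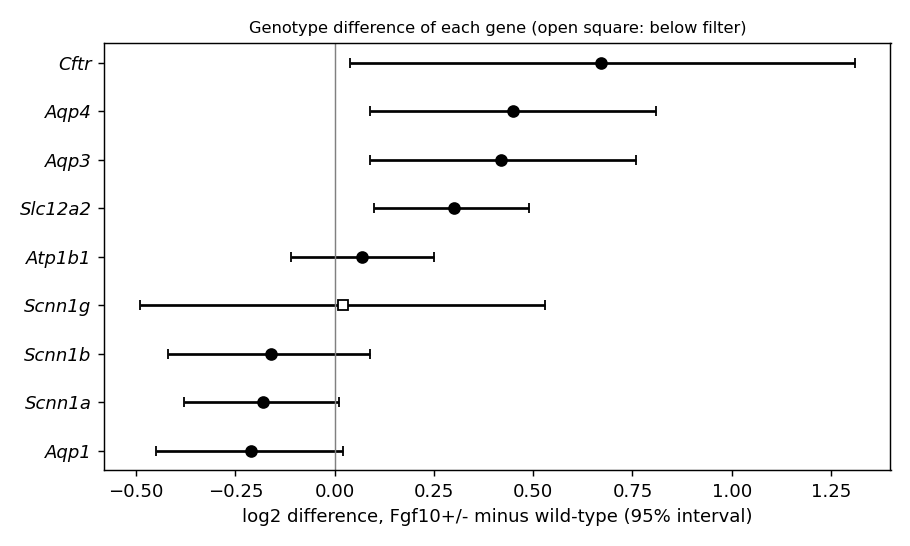
Log2 difference (horizontal axis, Fgf10+/- minus wild-type) of each gene with its 95% interval from limma, ordered by size. The intervals of Cftr, Aqp4, Aqp3 and Slc12a2 lie above 0 before adjustment for the number of genes tested, those of the other 5 genes include 0, and no gene passed after adjustment.

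Single arrays shared a position across several members. Wild-type array 2 was the lowest of its group for 5 of the 9 genes, Scnn1a, Scnn1b, Cftr, Aqp3 and Aqp4. Wild-type array 1 was the highest of its group for 4, Scnn1b, Slc12a2, Aqp3 and Aqp4. No Fgf10+/- array was the highest of its group for more than 3 members. Wild-type array 2 also had the highest smooth muscle score of all 8 arrays, 0.42, and wild-type array 1 the highest macrophage score, 0.59. Alveolar type 2 scores, which ranged from 0.06 to 0.19 in Fgf10+/- arrays and from -0.21 to -0.08 in wild-type arrays, did not overlap between the groups. Macrophage scores overlapped, at -0.29 to -0.06 in Fgf10+/- arrays and -0.12 to 0.59 in wild-type arrays. So did immediate early scores, at 0.06 to 0.43 in Fgf10+/- arrays and -0.43 to 0.26 in wild-type arrays. Smooth muscle scores did not overlap, at -0.21 to -0.08 in Fgf10+/- arrays and -0.03 to 0.42 in wild-type arrays. Nor did the scores of cycling cells, which ranged from -1.08 to -0.39 in Fgf10+/- arrays and from 0.03 to 0.82 in wild-type arrays. Ciliated cell scores overlapped, at 0.02 to 0.50 in Fgf10+/- arrays and -0.56 to 0.11 in wild-type arrays, and all 9 ciliated markers had positive differences. Alveolar type 1 scores overlapped, from -0.15 to 0.07 in Fgf10+/- arrays and from -0.07 to 0.12 in wild-type arrays. The part of these lists in the member values was not tested.

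**Figure D3:**
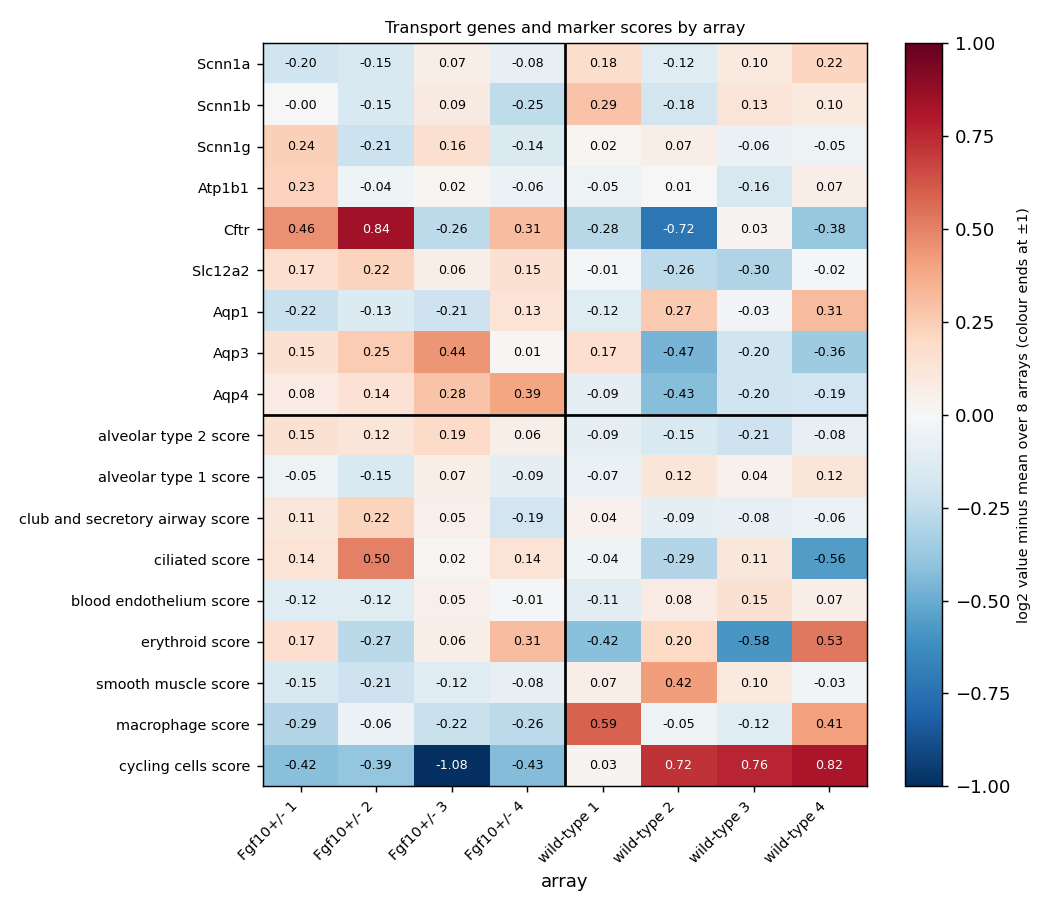
Log2 value minus the mean over the 8 arrays for the 9 genes (upper rows) and the same for marker list scores (lower rows), with arrays in columns, Fgf10+/- left and wild-type right. Red is above and blue below the mean, and colour stops at 1 in either direction. The alveolar type 2 score is above 0 in all 4 Fgf10+/- arrays and below 0 in all 4 wild-type arrays, as are the values of Aqp4 and Slc12a2.

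Around the 9 genes, 5 lists held 85 other genes of salt and water transport, of which 69 could be tested. Of these limma called 0 higher and 2 lower, Hsd11b1 and Fxyd6, and did not call 67. That is 2.9% of the 69, beside 0.795% of all genes in either direction and 0.569% lower. The median difference was 0.05, beside 0.007 over all genes. These lists were chosen with earlier results of these data known, so the shares called in them are no test.

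Regulators of the sodium channel included 1 called gene. Hsd11b1 encodes the enzyme that regenerates active glucocorticoid from its inactive form, and glucocorticoids raise sodium channel expression in the lung. It read 11.47, 11.80, 12.01 and 11.55 in Fgf10+/- arrays and 12.55, 12.53, 12.43 and 12.29 in wild-type arrays. All Fgf10+/- arrays lay below all wild-type arrays. Hsd11b1 fell by 0.74 on the log2 scale (95% CI -0.98 to -0.50, limma adjusted p = 0.01), to a level 1.67-fold lower in Fgf10+/- arrays. The array held 10 features of Hsd11b1, and the groups lay apart in all 10, with differences of -0.81 to -0.71. The call was kept in 8 of 8 runs with 1 array left out and was lost without the variance trend (adjusted p = 0.173).

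Other sodium channel regulators did not pass. The list had 19 tested genes, of which 13 had a positive difference, and a median of 0.12. Prss8, which encodes prostasin, a membrane protease that activates the channel, read 10.04, 9.85, 10.18 and 9.94 in Fgf10+/- arrays and 9.40, 9.56, 9.67 and 9.16 in wild-type arrays. The groups lay apart, and the difference of 0.56 (95% CI 0.30 to 0.81) just missed the threshold at a limma adjusted p = 0.0516. Its other feature had a difference of 0.30, and there the groups were not apart. St14, the gene of the protease matriptase, had a difference of 0.39 (SE 0.11, limma adjusted p = 0.148), with groups apart. Spint2, the gene of an inhibitor of such proteases, had 0.39 (SE 0.11, limma adjusted p = 0.138) on its brighter feature and 0.02 on its other one. Nedd4l encodes the ubiquitin ligase that removes the channel from the membrane. It read 10.37, 10.50, 10.41 and 10.60 in Fgf10+/- arrays and 10.08, 10.11, 10.17 and 10.30 in wild-type arrays, a difference of 0.30 with groups apart (SE 0.09, limma adjusted p = 0.166). The other feature of Nedd4l had a difference of 0.56, and there the groups overlapped. Sgk1, a glucocorticoid-induced kinase that acts on Nedd4l, differed by 0.15 (95% CI -0.17 to 0.47; 0.05 without wild-type array 4 and 0.31 without Fgf10+/- array 2), and the glucocorticoid receptor gene Nr3c1 by -0.05 (95% CI -0.23 to 0.14). Of the 19 genes 6 had groups apart, beside 6.64% of all genes, in a list chosen with earlier results of these data known.

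In the sodium pump list, which covers the other pump subunits and the FXYD proteins that modulate the pump, 7 of 8 tested genes had a negative difference and the median was -0.22. Fxyd6 read 10.10, 10.04, 10.00 and 10.09 in Fgf10+/- arrays and 10.66, 10.50, 10.73 and 10.79 in wild-type arrays. The groups lay far apart compared with their own spread. Fxyd6 fell by 0.61 (95% CI -0.80 to -0.42, limma adjusted p = 0.00783), to a level 1.53-fold lower in Fgf10+/- arrays, and kept its call in 8 of 8 runs with 1 array left out. It lost the call without the variance trend (adjusted p = 0.148). Fxyd5 had a difference of -0.34 and the beta-2 subunit Atp1b2 one of -0.48 (limma adjusted p = 0.334 and 0.397). Without wild-type array 1, which read 10.74 against 10.11 to 10.22 in the other 3 of its group, the Fxyd5 difference was -0.20. The difference for Fxyd4 was -0.42, and -0.17 without wild-type array 1.

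**Figure D4:**
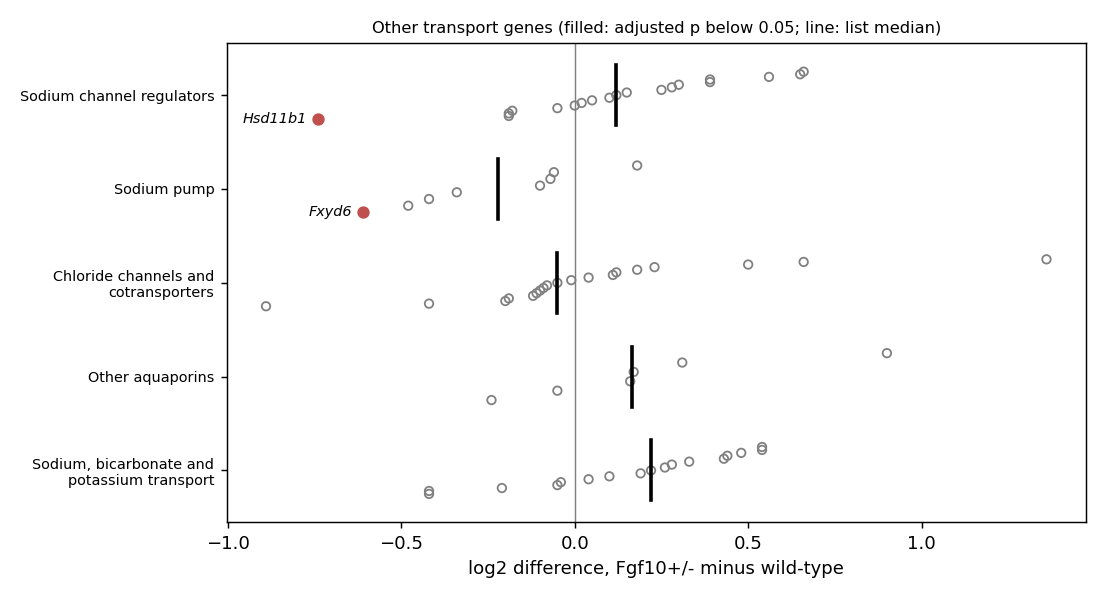
Log2 difference (horizontal axis, Fgf10+/- minus wild-type) of each tested gene of the 5 transport lists, 1 row per list. Filled points passed an adjusted p below 0.05 and open points did not; vertical lines are list medians. Hsd11b1 and Fxyd6 are the 2 filled points, at -0.74 and -0.61.

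Chloride channels and cotransporters other than Cftr and Slc12a2 had a median difference of -0.05, and none of 19 passed. Slc26a9, a chloride channel of airway epithelium, read 9.11, 9.22, 9.17 and 8.68 in Fgf10+/- arrays and 8.37, 8.18, 8.25 and 8.74 in wild-type arrays. The groups overlapped only because array 4 of the wild-type group lay above array 4 of the Fgf10+/- group. The difference was 0.66 (95% CI 0.33 to 0.99), a level 1.58-fold higher, at a limma adjusted p = 0.0706. Best1 had a difference of 1.36 (SE 0.62), Gabrp of 0.50 (SE 0.30) and Slc12a1 of -0.89 (SE 0.48), with limma adjusted p from 0.431 to 0.573. Best1 read 4.50, 2.17, 5.17 and 2.20 in Fgf10+/- arrays, so arrays 1 and 3 carried its difference, which was 0.81 without array 3. Wild-type means of Best1 (2.15) and Fgf10+/- means of Slc12a1 (2.35) lay below the filter level, and whether they lay above background is unknown. Without wild-type array 4 the Slc12a1 difference was -0.41. The Gabrp difference was 0.75 without Fgf10+/- array 1.

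None of 6 other aquaporins passed. Aqp5, an apical water channel found in alveolar type 1 cells among others, read 13.05, 13.45, 13.62 and 13.12 in Fgf10+/- arrays and 13.10, 12.61, 13.14 and 13.17 in wild-type arrays. The groups overlapped. The difference was 0.31 (95% CI 0.00 to 0.61, limma adjusted p = 0.441), and it was 0.17 without wild-type array 2. Aqp11 had a difference of 0.90 (SE 0.53), Aqp8 of -0.24 (SE 0.40) and Aqp12 of 0.17 (SE 0.37). Single arrays moved all 3. With 1 array left out Aqp11 lay between 0.38, without wild-type array 4, and 1.31, without wild-type array 3. Averaged over its features, Aqp11 had a difference of 0.51. Aqp8 lay between -0.58, without Fgf10+/- array 4, and -0.03, without wild-type array 3. Aqp12 lay between -0.07, without wild-type array 2, and 0.41, without wild-type array 4.

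Among 17 tested genes of sodium, bicarbonate and potassium transport none passed and the median difference was 0.22. Scores of this list did not overlap, at -0.01 to 0.26 in Fgf10+/- arrays and -0.13 to -0.02 in wild-type arrays. The bicarbonate cotransporter genes Slc4a5 and Slc4a4 had differences of 0.48 (SE 0.14) and 0.54 (SE 0.21), with limma adjusted p of 0.158 and 0.323. The potassium channel gene Kcnj15 had 0.33 (SE 0.13) and the carbonic anhydrase gene Car2 had 0.28 (SE 0.13). With the mean over the features of a gene, Kcnj15 had 0.17, Slc4a5 0.48 and Slc4a4 0.57 (limma adjusted p = 0.849, 0.422 and 0.394). In each of these 4 genes the groups overlapped.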

How the data were processed

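Total RNA of 8 newborn mouse lungs was hybridised to 1-colour Agilent arrays, per the labels. The deposited table holds log2 intensities of 62976 features per array, and limma is the 1 tool listed in the submitters' processing notes. All 8 columns have nearly the same distribution, so no normalization was added. Background correction and detection calls are not given in the sources used here. Features with a missing value (189) were left out. Symbols came from the platform annotation, updated by accession through RefSeq (GRCm38.p6, 29036 of 31465 named features matched). Features with a mean below the 30th percentile (2.76) were removed, and the brightest feature stood for each of 17234 genes.

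Genes were tested with limma 3.58.1 in R 4.3.3 (lmFit, eBayes with a variance trend), Fgf10+/- minus wild-type, with Benjamini-Hochberg adjustment over all tested genes and a threshold of 0.05. Fgf10 was compared by an exact permutation test over 70 assignments. The fit was tested on simulated data, in 20 runs with 200 of 17234 genes changed. It recovered 51.6% of changes of 1 and 18.8% of changes of 0.5 on the log2 scale. Of its calls 3.89% were false. Most changes of 0.5 were thus missed in these runs, so a gene not called may still differ. The changed genes were drawn at random from all tested genes, so these shares are averages. The share for the members themselves was not measured. The members and lists were chosen with earlier results of these data known. Named genes are the members, Fgf10, up to 4 genes of each transport list with the smallest unadjusted p, and a panel of which Sgk1, Nedd4l, Nr3c1 and Aqp5 are given; its other genes are not reported here. Alternatives were other filters, normalizations, variance models, weights, a replicate block, a sex covariate (Xist) and arrays left out. The number of arrays limits the precision.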

Additional observations from a re-analysis of the deposited data

Results flagged for a closer look

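Among 33 genes examined, each in both groups of 4 arrays, 5 groups held an array far from the other 3 by Dixon's criterion, and chance flags about 1 in 20 groups. None of the 9 member genes was among them. Sgk1 read 10.87 in Fgf10+/- array 2, against 11.48 to 11.53 in the other 3 of that group, and its difference was 0.31 without that array. Slc12a1 read 2.08 in Fgf10+/- array 1, against 2.42 to 2.46 in the others, all below the filter level. Aqp8 read 4.58 in Fgf10+/- array 4, against 3.16 to 3.32. Slc4a5 read 8.96 in Fgf10+/- array 3, against 9.18 to 9.21. Aqp5 read 12.61 in wild-type array 2, where the other 3 of its group lay between 13.10 and 13.17.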

How the results depend on the processing

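No member was called at the main threshold under any of the alternatives run. A looser threshold of 0.1 was applied to the main fit only, where no member passed it. Without wild-type array 1 the limma adjusted p of Aqp3 was 0.098, which is below that looser threshold. The median difference of the 9 members lay between 0.01 and 0.11 with single arrays left out. The differences of the 9 genes kept their sign under all alternatives except that of Scnn1g, which was -0.06 and -0.03 without Fgf10+/- arrays 1 and 3 in turn, reached 0.09 without Fgf10+/- array 2, and was -0.02 without both Fgf10+/- array 3 and wild-type array 1. Leaving out that pair of arrays and the Xist covariate were chosen after seeing the data. The count of 137 called genes was 1 without the variance trend, 80 with the Xist level as a covariate, and 34 to 173 with single arrays left out, lowest without wild-type array 2. It was 116 with the replicate block, where the members called stayed at 0 and the transport genes called at 2. The deviations of same-numbered arrays from their group means correlated at -0.06 to 0.07. Such a correlation cannot decide whether these arrays share a litter or a day of processing, which the labels do not give. Among the transport lists 0 genes were called without the variance trend and 2 to 4 with single arrays left out, Prss8 and Slc4a5 being added without wild-type array 3 (adjusted p = 0.0408 and 0.0411). Prss8 was also called with the 50th percentile filter and with arrays centred on their median. Of 8 runs with 1 array left out, 1 called Prss8. With the mean over its features its limma adjusted p was 0.103. Slc26a9 was called with array weights and without array 4 of either group. Of the other named genes, Nr3c1 had 0.00 with the Xist covariate and Aqp12 had -0.07 without wild-type array 2 and 0.41 without wild-type array 4. The Fgf10 difference lay between 0.14 and 0.35 with single arrays left out. The Fgf10 difference was 0.12 without Fgf10+/- array 3 and wild-type array 1. The cause of these shifts was not tested. With 4 arrays a group and no detection calls, small differences and dim genes are the least certain.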
